A study of Mus musculus with 8 samples.

Results

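The olfactomedin genes described here were Olfm1, Olfm2, Olfm4, Olfml1, Olfml2a, Olfml2b and Olfml3, 7 of the 52325 genes in the count table, matched by their symbols. Olfm4 was picked because it was among the most abundant transcripts raised in the mutant endometrium, and the other 6 were added as members of the same family for comparison. The level of Olfm4 in the 2 genotypes is therefore given as a description, with no test.

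RNA-seq was done on endometrium cut by laser capture from frozen sections of the uterus of female WT mice and Thra1PV/+ mice, all in metestrus, with 4 libraries for each genotype. Thra1PV/+ mice carry 1 germline copy of a dominant negative mutant (PV) of the thyroid hormone receptor TRα1, so every cell of the mouse carries it, and the other copy is wild-type. The ages of these mice were not given in the sources used here, and no treatment was named for these samples. The supplementary text of the study counts 4 mice of each genotype, while the sample labels number replicates only, so p-values measure the spread between these libraries. Thra itself was at 45.8 to 126.8 CPM (counts scaled to the size of the library) in Thra1PV/+ libraries and at 47.4 to 110.0 CPM in WT libraries, and since the mutation changes the protein and not the presence of the gene, this level does not check the labels.

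Olfactomedins are mostly secreted glycoproteins that share a carboxy-terminal olfactomedin domain, which folds as a propeller and binds partner proteins at the cell surface and in the extracellular matrix. OLFM4 is a secreted product of epithelial cells and neutrophils, known as a marker of crypt base cells in human intestine and induced by inflammatory signalling through NF-kappaB. OLFM1 and OLFM2 are best known as secreted proteins of the nervous system, and OLFM1 has also been studied at the endometrial surface during embryo attachment. The olfactomedin-like proteins OLFML1, OLFML2A, OLFML2B and OLFML3 are extracellular proteins, of which OLFML3 is made by stromal, vascular and microglial cells and binds BMP ligands.

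Library totals ran from 48791602 to 59818887 counts. Simple epithelium markers such as Krt8, Krt18 and Epcam were present in all 8 libraries, with a summed level of 3509 to 8349 CPM in Thra1PV/+ and 3447 to 10001 CPM in WT. Stratified squamous epithelium markers, which a uterine lining does not usually carry, had a summed level of 3707 to 6333 CPM in Thra1PV/+ and 113 to 452 CPM in WT. Levels of stroma and muscle markers differed between libraries of the same genotype. Endometrial stroma markers summed to 8562 CPM in Thra1PV/+ replicate 1 and to 821 CPM in Thra1PV/+ replicate 2, and smooth muscle markers summed to 16003 CPM in WT replicate 1, with at most 1424 CPM in the other 7 libraries.

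Olfm4 had the largest difference between genotypes among the 7 genes. The gene (ENSMUSG00000022026.7) lies on the plus strand of mouse chromosome 14 at chr14:79984081-80023139 (GRCm38), with 3 annotated transcripts and 8 exon blocks. Olfm4 stood at 1141, 1113, 719 and 545 CPM in Thra1PV/+ replicates 1 to 4. In WT replicates 1 to 4 it stood at 5.25, 14.6, 6.98 and 16.5 CPM. The lowest mutant library was thus far above the highest WT library, and the groups did not overlap.

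On average Olfm4 was at 879 ± 295 CPM in Thra1PV/+ and 10.8 ± 5.55 CPM in WT (SD, n = 4 each). The fitted log2 fold change was 6.34 with a standard error of 0.52 and a 95% interval of 5.16 to 7.53, an 81.2-fold difference. These values rest on 31104 to 62164 counts per mutant library and 275 to 807 counts per WT library, so the WT level was measured well above zero. By mean CPM Olfm4 was in place 116 of all genes in Thra1PV/+ and in place 10314 in WT. Its reads made up 0.0575% to 0.127% of a mutant library.

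Of the 18174 genes that passed the filter on low counts, 180 were called, that is, changed at least 2-fold with an adjusted p of at most 0.1 in edgeR's quasi-likelihood test, which is 0.99% of the genes. Of these, 168 were higher in Thra1PV/+ (0.924%) and 12 were lower (0.066%). Olfm4 was picked from the abundant end of these 168, so its place among them, the third by mean CPM in Thra1PV/+, restates the choice, and its interval above describes the spread of the fit. The genes above it by abundance were the keratin genes Krt5 and Krt15, at 1461 and 912 CPM, and the next below was the keratin gene Krt13 at 690 CPM. The 5 most abundant of the 168 were therefore Olfm4 and 4 keratins of stratified epithelium, Krt14 coming after Krt13 at 442 CPM.

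**Figure D1:**
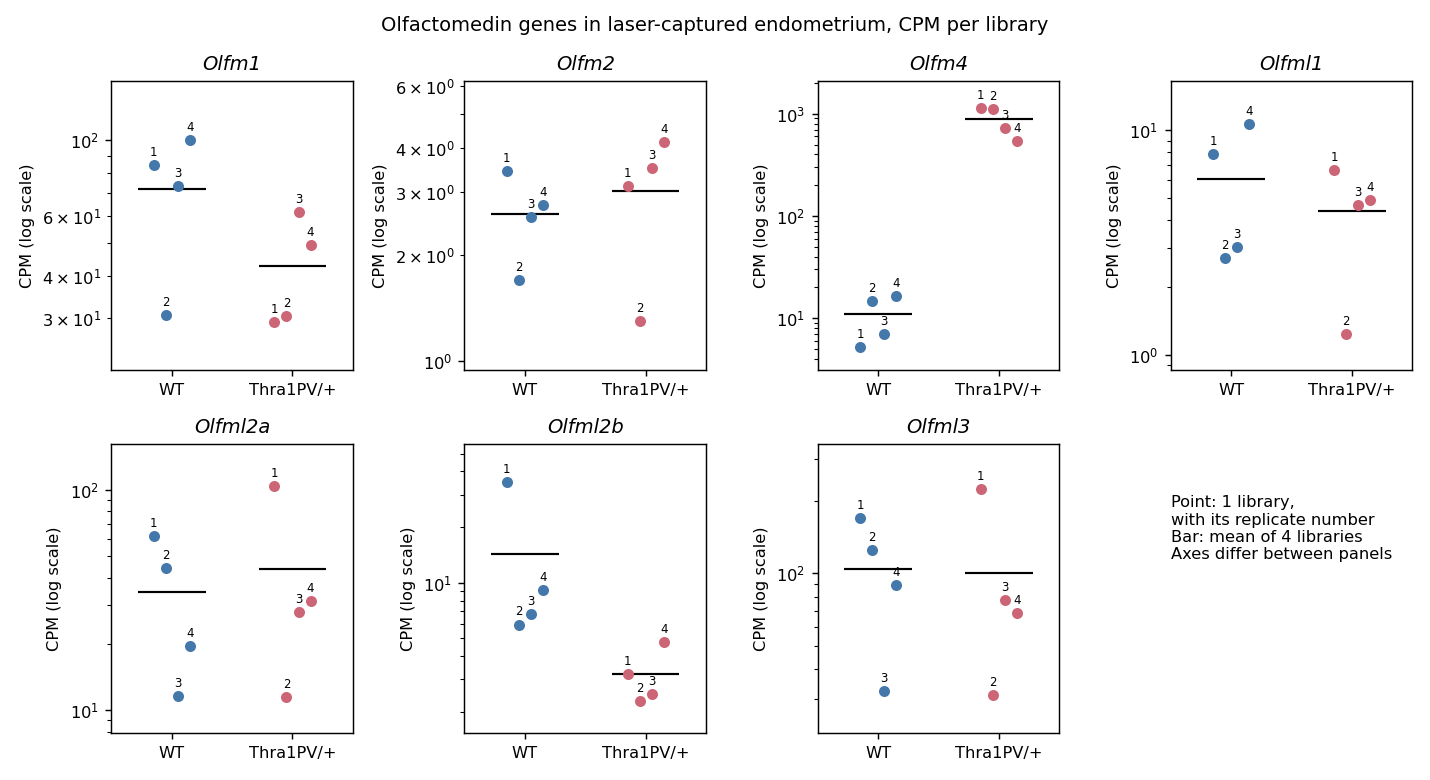
CPM (log axis) of the 7 olfactomedin genes in each library of WT and Thra1PV/+ endometrium, with replicate numbers beside the points and a bar at the mean of 4 libraries. Olfm4 separates by genotype with a wide gap (545 to 1141 CPM against 5.25 to 16.5 CPM), Olfml2b separates with a narrow gap in the other direction, and the other 5 genes overlap.

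The sequence before the start of Olfm4 is shown beside those of Olfml3 and Olfml2a, a pair of family members whose levels followed each other from library to library, so that the different letters at these starts can be seen. RefSeq promoters (GRCm38.p6) matched all 7 genes, in 10 windows. The gene model of Olfm4 is annotated to start further upstream, and the window shown is the one before its RefSeq start. It is given up to the exon start annotated in that window (chr14:80000052-80000250, plus strand), followed by a stretch of 30 bases across that exon start (chr14:80000245-80000274). Olfml3 (chr3:103738002-103738251, minus strand) and Olfml2a (chr2:38931730-38931977, plus strand) are given up to their first annotated exon. All are 5′ to 3′ on the strand of the gene, and capitals mark letters that match a searched motif.
Olfm4 upstream: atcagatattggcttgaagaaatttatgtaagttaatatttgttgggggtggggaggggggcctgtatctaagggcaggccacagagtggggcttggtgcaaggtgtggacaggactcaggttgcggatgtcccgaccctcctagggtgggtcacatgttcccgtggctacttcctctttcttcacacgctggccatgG
Olfm4 start: ccatgGGGAAATCCCCactgggagcTATAA
Olfml3 upstream: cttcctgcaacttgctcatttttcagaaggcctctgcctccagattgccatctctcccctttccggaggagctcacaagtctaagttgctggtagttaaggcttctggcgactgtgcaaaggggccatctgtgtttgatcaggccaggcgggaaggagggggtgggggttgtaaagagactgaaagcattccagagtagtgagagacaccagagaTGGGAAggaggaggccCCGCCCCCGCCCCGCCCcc
Olfml2a upstream: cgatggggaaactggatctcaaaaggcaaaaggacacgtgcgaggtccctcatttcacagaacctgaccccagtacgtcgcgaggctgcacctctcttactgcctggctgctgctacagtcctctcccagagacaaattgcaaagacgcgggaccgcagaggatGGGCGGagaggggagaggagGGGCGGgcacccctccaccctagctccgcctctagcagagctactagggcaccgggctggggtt

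The motifs were searched on both strands of the 250 bases before each RefSeq start: TATAA (the core of a TATA box), AGGTCA (bound by nuclear receptors), GGGCGG (a GC box), TGANTCA (AP-1), TGGGAA (RBPJ of the Notch pathway) and the NF-kappaB motif. Olfm4 was the only one of the 7 genes with TATAA in a window, 32 bases before its start, and 22.8% of 32817 promoters hold these letters. It held no GC box, nor did Olfml1, and 32.7% of all promoters hold one. Olfml3 had 3 matches to the GC box, in the last run of capitals of its line, and Olfml2a had 2, while Olfm1, Olfm2 and Olfml2b held it as well.

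The NF-kappaB motif matched the Olfm4 window at chr14:80000250-80000259 and again 1 base further, in the first run of capitals of the 30-base line, and the TATAA letters follow on the same line at chr14:80000270-80000274. This motif is in 3.90% of all promoters, and among the other 6 genes it matched 1 of the 3 windows of Olfm2. AGGTCA matched neither the Olfm4 window nor those of Olfml3 and Olfml2a, and 14.0% of all promoters hold it. TGANTCA, in 6.75% of promoters, was in no member's window, and TGGGAA, in 21.6%, was in those of Olfm4, Olfml3 and Olfml2b. A match is a description of letters and not of binding, which was not measured.

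OLFM4 is tied by earlier work to NF-kappaB and Notch signalling and to the innate immune receptors NOD1 and NOD2, which it binds. Of 18 such regulators and partners of olfactomedins, all 18 were tested and 0 were called by edgeR, DESeq2 or limma voom (2 with an unadjusted edgeR p under 0.05). Over all genes 9.77% had such a p, and DESeq2 and limma voom called 3.64% and 1.71% of the genes they tested. In the list 10 genes were higher and 8 lower in Thra1PV/+, and the median log2 fold change was 0.08 against −0.05 over all tested genes. Of the 18 genes 1 had groups that did not overlap, where 6.04% of all tested genes did not. With 18 genes, a count of 1 is near that share, and nothing is read from it. In edgeR's test, the NF-kappaB subunit genes Nfkb1 and Rela had log2 fold changes of 0.19 ± 0.25 (SE; adjusted p = 0.861) and −0.02 ± 0.19 (adjusted p = 0.988). Notch1 differed by 0.51 ± 0.24 on the log2 scale (edgeR adjusted p = 0.554) and its target Hes1 by 0.48 ± 0.28 (adjusted p = 0.643). Neither passed the test, and in both cases the ranges of the genotypes overlapped. These are levels of mRNA, and the activity of the NF-kappaB and Notch pathways was not measured.

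Nod1, which encodes a sensor of bacterial peptidoglycan, had a log2 fold change of −0.31 with a 95% interval of −0.93 to 0.31. Nod2, its relative, ran from 5.14 to 35.4 CPM in Thra1PV/+ and from 1.52 to 29.8 CPM in WT, with an interval of −1.71 to 1.99 on the log2 scale. Ndufa13, a mitochondrial complex I subunit also known as GRIM-19 that binds OLFM4, was the list member whose groups did not overlap. It was at 110 to 133 CPM in Thra1PV/+ and 142 to 159 CPM in WT, a log2 fold change of −0.35 that did not pass edgeR's test (adjusted p = 0.346). Ctsc, the protease cathepsin C, was at 57.6 to 121 CPM and 45.03 to 83.4 CPM, also without passing. Ndufa13 and Spi1 were the 2 genes of the list with an unadjusted edgeR p under 0.05. Spi1 ran from 11.8 to 21.6 CPM in Thra1PV/+ and from 7.94 to 13.2 CPM in WT. Its log2 fold change was 0.65 with a 95% interval of 0.03 to 1.27 (edgeR adjusted p = 0.490).

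Olfm4 is known in human intestine as a companion of stem cell genes, and 14 crypt and gland stem cell genes were examined beside it. All 14 were tested, 8 were higher and 6 lower in Thra1PV/+, 0 were called by edgeR, DESeq2 or limma voom (1 with an unadjusted edgeR p under 0.05), and the median log2 fold change was 0.38. Over all tested genes 9.77% had such a p, 6.04% did not overlap between genotypes, and the median log2 fold change was −0.05. The 4 genes of the list with the highest mean CPM were Prom1, Smoc2, Ephb2 and Tnfrsf19. Their log2 fold changes were −0.66, −1.27, −0.11 and 0.95 (edgeR adjusted p = 0.848, 0.673, 0.931 and 0.515). Lgr5, Axin2 and Ephb3, given next and all higher in Thra1PV/+, were chosen after their values were seen. Lgr5, the receptor that marks crypt base stem cells, was at 14.2 to 25.3 CPM in Thra1PV/+ and 0.219 to 19.1 CPM in WT, with a 95% interval of −1.09 to 2.98 for the log2 fold change. The Wnt target Axin2 was at 40.8 to 116 CPM and 19.8 to 56.2 CPM (interval −0.03 to 1.84). The ephrin receptor gene Ephb3, at 60.9 to 81.5 CPM in Thra1PV/+ and 33.1 to 44.3 CPM in WT, was the member whose groups did not overlap. Its log2 fold change of 0.82 had an edgeR adjusted p of 0.0529 and lay under the 2-fold threshold.

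Markers of the cells that could carry Olfm4 were examined in the same libraries. In bulk samples, more cells of a type and more RNA per cell cannot be told apart. Of 18 squamous markers, 17 were tested, 17 were higher in Thra1PV/+, 11 were called by edgeR (11 without WT replicate 1, 6 without WT replicate 4), 17 by DESeq2 and 14 by limma voom, and 15 did not overlap between genotypes, where 6.04% of all tested genes did not. Over all genes edgeR, DESeq2 and limma voom called 0.99%, 3.64% and 1.71%. Across the 4 mutant libraries the order of Olfm4 was not that of the squamous markers: Thra1PV/+ replicate 1 had the highest Olfm4 (1141 CPM) and the lowest squamous sum (3707 CPM), and Thra1PV/+ replicates 2 and 3 had squamous sums of 6329 and 6333 CPM with Olfm4 at 1113 and 719 CPM. Thra1PV/+ replicate 4 had the lowest Olfm4 (545 CPM) with a squamous sum of 4601 CPM. In WT replicates 1 to 4 the squamous sums were 113, 132, 452 and 286 CPM, with Olfm4 at 5.25, 14.6, 6.98 and 16.5 CPM. WT replicate 1 was thus lowest in both, while WT replicate 3 had the highest squamous sum and the second lowest Olfm4. The part of these cells in the level of Olfm4 was not tested.

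Neutrophils make OLFM4 as a granule protein, and 19 neutrophil markers were measured. Of the 14 that were tested, 11 were higher and 3 lower in Thra1PV/+, 0 were called by edgeR (8 with an unadjusted p under 0.05) and by limma voom, 5 by DESeq2 (Cd177, Chil3, Csf3r, Il1r2 and S100a9), 1 did not overlap, and the median log2 fold change was 2.13. Over all genes 9.77% had such a p, 6.04% did not overlap, DESeq2 called 3.64%, and the median log2 fold change was −0.05. S100a9, the calprotectin subunit abundant in neutrophils, was at 21.9 to 412 CPM in Thra1PV/+ and 0.993 to 56.1 CPM in WT, a log2 fold change of 3.26 ± 1.32 (SE; edgeR adjusted p = 0.475). The chemokine receptor gene Cxcr2 was at 8.61 to 49.3 CPM and 1.25 to 14.5 CPM (log2 fold change 2.08, edgeR adjusted p = 0.509). Elane, neutrophil elastase, had 0 counts in every library, and the granule genes Ngp, Camp and Mpo had at most 12, 4 and 7 counts in any library.

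The lineage marker Ly6g had 29 to 54 counts in Thra1PV/+ libraries and 4 to 107 in WT libraries. The summed level of the list, 5514 to 20297 CPM in Thra1PV/+ and 1388 to 26134 CPM in WT, was made up mostly of Ltf and Lcn2, secreted antimicrobial proteins that uterine epithelium makes as well. The highest WT sum was in replicate 3, where Olfm4 was at 6.98 CPM, Ltf at 16021 CPM and Lcn2 at 10095 CPM. In WT replicates 1 to 4 S100a9 was at 10.8, 0.993, 3.06 and 56.1 CPM, with Olfm4 at 5.25, 14.6, 6.98 and 16.5 CPM. In Thra1PV/+ replicates 1 to 4 S100a9 was at 79.8, 412, 165 and 21.9 CPM, with Olfm4 at 1141, 1113, 719 and 545 CPM. The part of neutrophils in the level of Olfm4 was not tested.

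Of 10 uterine gland markers, 7 were tested, 2 were higher and 5 lower, 0 were called by edgeR (2 with an unadjusted p under 0.05) and 1, Sult1d1, by DESeq2 and by limma voom, and the summed level was 242 to 298 CPM in Thra1PV/+ and 351 to 964 CPM in WT. Foxa2, the transcription factor of gland epithelium, was at 12.96 to 35.1 CPM and 12.2 to 22.2 CPM, with overlapping ranges. Sult1d1, a sulfotransferase of the list, was at 15.1 to 65.0 CPM in Thra1PV/+ and 92.3 to 481 CPM in WT without overlap, but its log2 fold change of −2.93 did not pass edgeR's test (adjusted p = 0.165). By edgeR, DESeq2 and limma voom 0 macrophage markers (7 of 9 tested higher, 0 with an unadjusted edgeR p under 0.05) and 0 red blood cell markers (5 of 5 lower, 2 with such a p) were called, and the summed level of both lists overlapped between genotypes. Over all genes 9.77% had such a p, and DESeq2 and limma voom called 3.64% and 1.71%.

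**Figure D2:**
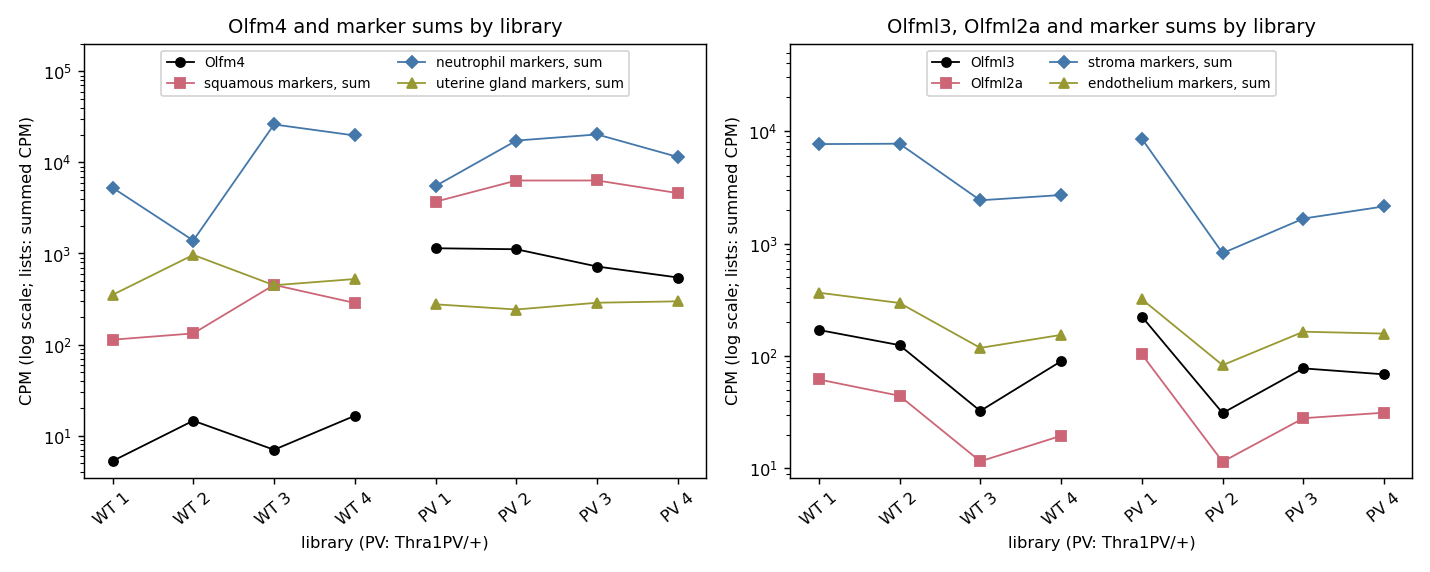
Left, CPM of Olfm4 and summed CPM of squamous, neutrophil and uterine gland markers in each library (log axis, PV standing for Thra1PV/+). Right, CPM of Olfml3 and Olfml2a with summed stroma and endothelium markers. Olfm4 is at 545 to 1141 CPM in the 4 mutant libraries. The neutrophil sum there is 5514 to 20297 CPM, made up mostly of Ltf and Lcn2, which uterine epithelium makes as well. Olfml3 and Olfml2a share highs in WT and Thra1PV/+ replicate 1 and lows in WT replicate 3 and Thra1PV/+ replicate 2.

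Over the 12131 genes that reached 2 or more in mean log2 CPM, those whose levels followed Olfm4 most closely from library to library, after each genotype's mean was subtracted, were Tbl2, Slc35a4, Tubb4b, Clic6 and Nup205, with Pearson's r of 0.969, 0.960, 0.938, 0.935 and 0.935 over the 8 libraries. These values are descriptions, since the points share their library and depth and the highest of many were picked. Clic6, a chloride channel family gene, was the member of the 5 with a large difference between genotypes. It was at 21.1, 24.8, 18.0 and 14.0 CPM in Thra1PV/+ replicates 1 to 4 and at 1.81, 6.14, 2.21 and 4.52 CPM in WT replicates 1 to 4.

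Of the other 6 family members 0 were called by edgeR, 2 were higher and 4 lower in Thra1PV/+, 1 had an unadjusted p under 0.05 and the same 1 did not overlap between genotypes, where 9.77% and 6.04% of all tested genes did so. DESeq2 called 1 of them, Olfml2b, beside 3.64% of all its genes, and limma voom called 0. With 6 genes, a count of 1 is near these shares, and nothing is read from the counts. All 6 passed the filter on low counts, and their median log2 fold change was −0.27.

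**Figure D3:**
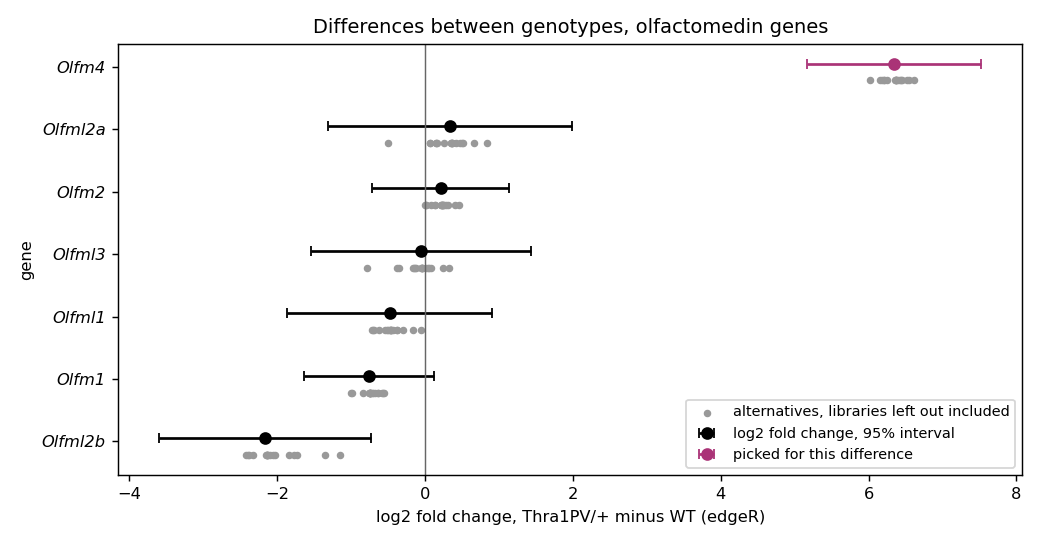
Log2 fold change of each olfactomedin gene, Thra1PV/+ minus WT, with its 95% interval from edgeR, and grey points for the alternative fits. Olfm4, picked for this difference, lies at 6.34, the interval of Olfml2b lies below 0, and those of the other 5 genes include 0.

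Olfm1 (ENSMUSG00000026833.18, chr2:28192992-28230736, plus strand), the brain-rich member, was at 29.2, 30.4, 61.7 and 49.2 CPM in Thra1PV/+ replicates 1 to 4. In WT it was at 84.6, 30.7, 73.2 and 100.2 CPM. WT replicate 2 fell in the range of the mutants, so the groups overlapped, and the other 3 WT libraries were above every mutant library. The log2 fold change was −0.76 ± 0.39 (SE) with a 95% interval of −1.64 to 0.12, and it did not pass edgeR's test (adjusted p = 0.584). The two-sided exact permutation test on log2 CPM gave p = 0.143, where 0.0286 is the smallest p that 70 arrangements of 4 against 4 allow, and this test was run once for each of the 6 genes and is given unadjusted.

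Olfm2 (ENSMUSG00000032172.8, chr9:20667690-20746349, minus strand) was low, at 1.299 to 4.17 CPM in Thra1PV/+ and 1.70 to 3.43 CPM in WT, from as few as 64 counts in a mutant library. Its log2 fold change of 0.21 had a 95% interval of −0.72 to 1.14 (edgeR adjusted p = 0.915, exact permutation p = 0.743). Olfml1 (ENSMUSG00000051041.7, chr7:107567446-107591094, plus strand) was also low, at 6.65, 1.24, 4.64 and 4.89 CPM in Thra1PV/+ and 7.86, 2.69, 3.02 and 10.6 CPM in WT. The libraries of both genotypes were mixed in order, and the 95% interval of the log2 fold change was −1.86 to 0.91 (edgeR adjusted p = 0.861, exact permutation p = 0.6).

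Olfml2b (ENSMUSG00000038463.8, chr1:170644532-170682789, plus strand), which encodes an extracellular matrix protein, was at 3.21, 2.29, 2.49 and 4.76 CPM in Thra1PV/+ replicates 1 to 4. In WT replicates 1 to 4 it was at 35.2, 5.94, 6.76 and 9.13 CPM. Every WT library was above every mutant library, with 4.76 and 5.94 CPM as the nearest values, and WT replicate 1 stood well above the other 3. The log2 fold change of −2.16 ± 0.62 (SE, 95% interval −3.59 to −0.73) had an unadjusted p of 0.00807 and an adjusted p of 0.284 in edgeR's test, so it was not called, and the exact permutation test gave 0.0286, the smallest p it allows. By DESeq2 the adjusted p was 0.0202 and Olfml2b was called.

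Without WT replicate 1, the library with 16003 CPM of smooth muscle markers, the log2 fold change of Olfml2b was −1.15 (edgeR adjusted p = 0.304). Smooth muscle markers moved in the same direction as Olfml2b, with 10 of 10 lower in Thra1PV/+, 0 called by edgeR (10 with an unadjusted p under 0.05), 1 by DESeq2 (Synm) and 2 not overlapping. Over all tested genes 9.77% had such a p and 6.04% did not overlap, and DESeq2 called 3.64% of its genes. The summed level of the muscle markers was 201 to 848 CPM in Thra1PV/+ and 683 to 16003 CPM in WT, and no marker of the list was at 0. Stroma markers were lower in 16 of 16 cases, with 0 called by edgeR, 1 with an unadjusted p under 0.05 and a median log2 fold change of −0.73. Dcn, which encodes the matrix proteoglycan decorin, was the stroma marker that did not overlap (20.3 to 312 CPM and 365 to 1049 CPM) and the 1 that DESeq2 called. The part of these cells in the level of Olfml2b was not tested.

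Olfml3 (ENSMUSG00000027848.12, chr3:103722222-103738001, minus strand), the BMP-binding member, was at 224, 31.1, 77.6 and 68.6 CPM in Thra1PV/+ replicates 1 to 4. In WT replicates 1 to 4 it was at 170, 125, 32.4 and 89.8 CPM. The highest and the lowest of the 8 libraries were both mutant, so the spread within a genotype was far larger than the difference between the means. The log2 fold change was −0.06 with a 95% interval of −1.54 to 1.43 (edgeR adjusted p = 0.988, exact permutation p = 0.8), and its sign turned positive under library-size scaling and without some libraries.

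Olfml2a (ENSMUSG00000046618.7, chr2:38931978-38963753, plus strand), an olfactomedin-like matrix protein gene, was at 104, 11.5, 27.97 and 31.3 CPM in Thra1PV/+ and 61.9, 44.3, 11.6 and 19.5 CPM in WT. Its log2 fold change of 0.35 had a 95% interval of −1.31 to 1.996 (edgeR adjusted p = 0.926, exact permutation p = 0.8). Without Thra1PV/+ replicate 1 the log2 fold change was −0.50, so its direction rests on that library.

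Olfml3 and Olfml2a were high and low in the same libraries. After each genotype's mean was subtracted, their log2 CPM had a Pearson's r of 0.973 over the 8 libraries, against 0.091 for Olfml3 and Olfm4, both given as descriptions. The ratio of Olfml3 to Olfml2a in deposited TPM (abundance per transcript length) stayed between 3.05 and 3.80 in Thra1PV/+ and between 3.39 and 5.75 in WT, while Olfml3 itself spanned 31.1 to 224 CPM. Stroma markers were summed at 8562, 821, 1669 and 2141 CPM in Thra1PV/+ replicates 1 to 4 and at 7671, 7731, 2426 and 2701 CPM in WT replicates 1 to 4. The libraries with most stroma signal, Thra1PV/+ replicate 1 and WT replicates 1 and 2, were thus those with the highest Olfml3, while Olfm4 differed by genotype in all of them. The same libraries had the most endothelium signal, given below.

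The 5 genes most like Olfml3 by the same measure were Evi5, S1pr1, Dock2, Gpx8 and Ift57, with r from 0.989 to 0.993. S1pr1 encodes a sphingosine-1-phosphate receptor of blood vessels and lymphocytes, and Dock2 a guanine nucleotide exchange factor of blood cells. Endothelium markers were summed at 320, 82.9, 164 and 158 CPM in Thra1PV/+ replicates 1 to 4. In WT replicates 1 to 4 the sums were 366, 296, 118 and 154 CPM. Within each genotype this was the order of Olfml3, and the stroma sums were not in that order. Of the endothelium markers 8 of 10 were lower and 2 higher. By edgeR, DESeq2 or limma voom 0 were called (0 with an unadjusted edgeR p under 0.05). The part of stroma and endothelium in the levels of Olfml3 and Olfml2a was not tested.

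Levels of different genes were compared on the deposited TPM values, which allow for length. In WT endometrium the order of mean TPM was Olfm1 (55.4), Olfml3 (29.96), Olfml2a (7.27), Olfml2b (5.70), Olfm4 (5.32), Olfml1 (4.41) and Olfm2 (2.07). Of the neighbours in this order, Olfml3 and Olfml2a differed beyond their spread, as did Olfml1 and Olfm2, and the rest did not. Olfm4 in WT was thus a minor member, at 2.21 to 8.21 TPM, with Olfm1 3.71 to 29.8 times as high.

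In Thra1PV/+ endometrium the order was Olfm4 (454 TPM), Olfm1 (31.8), Olfml3 (29.8), Olfml2a (9.29), Olfml1 (3.001), Olfm2 (2.17) and Olfml2b (1.17). Olfm1 and Olfml3 did not differ beyond their spread, nor did Olfml1 and Olfm2. Olfm4 was 7.02 to 32.9 times as high as Olfm1 in the mutant libraries and made up 78.4% to 93.2% of the summed TPM of the 7 genes, against 1.46% to 8.27% in WT.

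**Figure D4:**
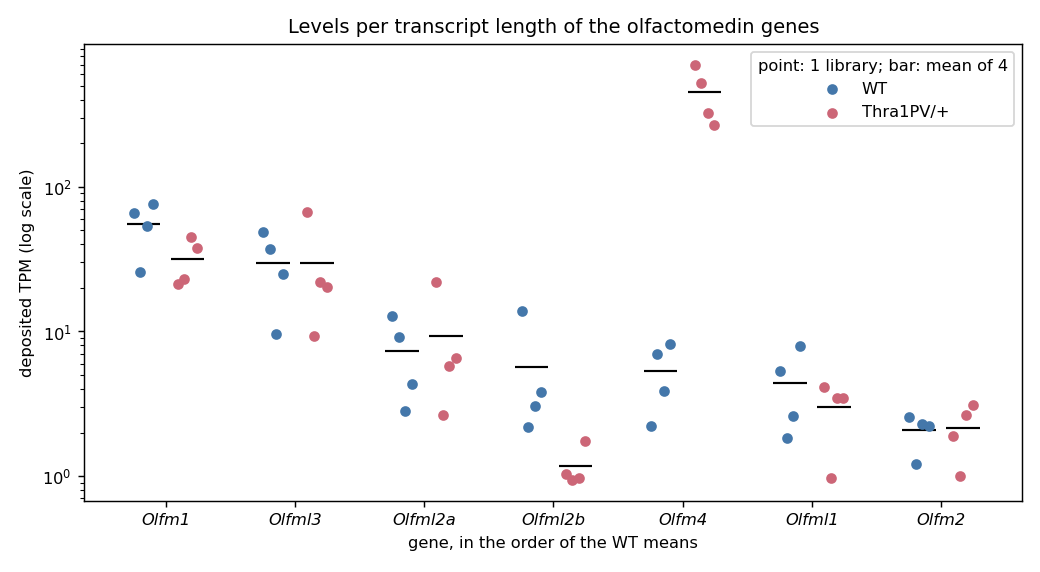
Deposited TPM (log axis) of the 7 olfactomedin genes by genotype, ordered by the WT mean, with a point per library and a bar at the mean of 4. Olfm4 lies in the lower part of the order in WT (5.32 TPM) and first in Thra1PV/+ (454 TPM), and Olfml2b is last in Thra1PV/+ (1.17 TPM).

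Of the 7 other genes with an olfactomedin domain that were looked up, 3 passed the filter on low counts. Adgrl1, Adgrl2 and Adgrl3, adhesion receptors of the latrophilin family, had log2 fold changes of −0.55, 0.23 and 0.34, and 0 of 3 were called by edgeR, DESeq2 or limma voom, with 0 unadjusted edgeR p under 0.05 (edgeR adjusted p = 0.859, 0.841 and 0.828). Myoc, the myocilin gene, had 0 to 14 counts in Thra1PV/+ libraries and up to 141 counts in WT, the latter in replicate 1. Olfm3 had 0 counts in every mutant library and at most 24 in a WT library, Gldn had at most 8 counts, and Olfm5 had 0 in all 8 libraries.

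Annotated neighbours could add few reads to the members. Olfm4 overlaps the long non-coding gene Gm6999 on its own strand, which had 0 counts in every library, and Olfml2a overlaps the pseudogene Gm13473, which had at most 4. The other 5 genes overlap no annotated gene.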

How the data were processed

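RNA was isolated from laser-captured endometrium of 4 WT and 4 Thra1PV/+ mice, and stranded mRNA libraries were sequenced as paired ends. Reads were trimmed (Trimmomatic) and quantified (Salmon, mm10) by the authors, and the versions and annotation release were not given in the sources used here. The authors deposited estimated counts per gene, not normalized, and TPM values. When each library's deposited TPM are put in order of size, the 8 libraries differ nowhere by more than 0.29, a mark of quantile normalization, which makes these values relative levels. In the TPM table, 1 column of per-sample values belongs to no sample and was left out.

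Estimated counts were rounded. In edgeR 4.0.16 (R 4.3.3), filterByExpr with a count minimum of 10 and a total of 15 left 18174 genes, which were normalized by TMM and fitted with the quasi-likelihood test of genotype, with Benjamini-Hochberg adjustment over all tested genes. The standard error was derived from the fold change and the F statistic. Calls needed a 2-fold change and an adjusted p of 0.1 or below. CPM values are scaled by TMM, and log2 CPM used a prior count of 2. Identifiers without a symbol held at most 0.00896% of the counts. Alternatives were DESeq2 1.42.0 (the tool of the authors), limma 3.58.1, other scalings, filters and thresholds, the replicate block, and each library left out. The scripts were tested on simulated data. Differences beyond spread mean that the mean log2 ratio between neighbours exceeded its SD over 4 libraries and that the ratio had the same direction in all 4.

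Depth was 48791602 to 59818887 counts. Positions are from GENCODE M21 (GRCm38), and 49550 of 52325 identifiers had the same version there. Named genes were the 7 members, other olfactomedin-domain genes, genes of the regulator and partner list, up to 4 genes of each other list with the highest mean CPM, and the 5 genes most like Olfm4 and Olfml3. Genes of the marker lists named outside this rule (Ephb3, Lgr5, Axin2, Dcn, Foxa2, Cxcr2, Csf3r, Ly6g, Elane, Ngp, Camp, Mpo, Cd177, Chil3, Il1r2, Synm, Epcam, Krt14, Krt18) and the promoter motifs were chosen after their values or sequences were seen. The members and all lists were chosen with earlier results of these data known.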

Additional observations from a re-analysis of the deposited data

How the results depend on the processing

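The log2 fold change of Olfm4 lay between 6.02 and 6.62 under 18 alternatives (DESeq2, other scalings and filters, the replicate block, limma on counts and on log2 TPM with pseudocounts of 1 and 0.1, and each library left out, which gave 6.16 to 6.62). Those of Olfm1 (−0.99 to −0.55), Olfm2 (0.0018 to 0.46) and Olfml1 (−0.72 to −0.06) kept their sign and were not called under the same 18. Olfml2b was called by DESeq2 (log2 fold change −2.14, adjusted p = 0.0202) and by none of the other 17, where leaving out a library gave −2.42 to −1.15. The sign of Olfml3 turned with library size as the only scaling (0.018), and leaving out a library gave −0.78 to 0.32, positive without Thra1PV/+ replicates 2, 3 or 4 or WT replicates 1 or 2. Leaving out a library gave −0.50 to 0.83 for Olfml2a, negative without Thra1PV/+ replicate 1. The 180 calls (168 higher, 12 lower) became 793 (567 and 226) by DESeq2, 311 (253 and 58) by limma voom with quality weights, 81 with at least 10 counts in every library, 119 at an adjusted p of 0.05, and 81 to 167 with a library left out (81 without Thra1PV/+ replicate 3, 116 without Thra1PV/+ replicate 2, 114 without WT replicate 4), and the cause was not tested. The labels do not say whether replicate numbers pair the samples. Same-numbered libraries had correlations of 0.27, −0.44, 0.34 and −0.16 after the genotype means were subtracted, which cannot settle it. The replicate block in edgeR gave 82 calls and Olfml2b at −1.77 (adjusted p = 0.390). The level of Olfm4 relative to Olfm1 on the log2 scale was 3.80 in Thra1PV/+ and −3.45 in WT by TPM, and 4.64 and −2.51 by CPM per kilobase of exons. Olfm2 and Olfml1 were at under 11 CPM in every library, and differences the size of their intervals were not detectable with 4 libraries a genotype.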
